A study of Mus musculus with 8 samples.

Results

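Solute carriers are membrane proteins that move sugars, amino acids, lactate, ions, metals and other small molecules across the plasma membrane and the membranes of organelles. This account covers the 186 genes of the expression table, of 13540 in all, whose symbol is Slc or Slco followed by a family number, a letter and a member number. Members of the mitochondrial Slc25a family and the sodium-calcium exchanger gene Slc8a1 were left out by that rule. The rule did not use any expression value. It also takes in 4 genes that are named after a carrier without being one (Slc9a3r1, Slc9a3r2, Slc7a6os and Slc4a1ap), which leaves 182 carriers.

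The mRNA came from a 129/Ola embryonic stem cell culture of the mouse that was driven towards heart muscle and sampled at 4 stages. Undifferentiated cells (ESC) were taken on day 0, mesodermal cells (MES) on day 4, cardiac precursors (CP) on day 5.3 and cardiomyocytes (CM) on day 10. Each stage had 2 libraries, called biological duplicates, which makes 8 in all. The protocol text shared by all samples describes embryoid bodies in serum-free medium, reaggregation with VEGF, Activin A and BMP4, and plating with VEGF, basic FGF and FGF10. No genetic change is named in the labels. The table gives 1 value per stage in RPKM (reads per kilobase of a gene's model, corrected for sequencing depth), so the stages could not be compared against a spread between replicates, and no SD or p-value is given. Differences are on the log2(RPKM + 1) scale, which understates those of genes with low values, and "at least 2-fold" means a difference of at least 1 on that scale. Where 4 values follow a gene, they are in the order of the stages, from ESC through MES and CP to CM.

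Markers of stem cells, mesoderm and cardiomyocytes were highest at the stage of that label, and those of cardiac precursors were high in both CP and CM. Summed over 4 genes each, the stem cell markers Pou5f1, Nanog, Sox2 and Zfp42 stood at 1298, 84.5, 9.37 and 0.420 RPKM. The mesoderm markers T, Mesp1, Eomes and Mixl1 reached 6.52, 297, 0.586 and 0.107 RPKM, and the cardiomyocyte markers Myh6, Tnnt2, Actn2 and Nppa 6.14, 1.73, 558 and 4139.7 RPKM. The cardiac precursor markers Isl1, Nkx2-5, Gata5 and Mef2c summed to 1.11, 16.5, 279 and 236 RPKM. Of these, Nkx2-5 was higher in CM (178 RPKM) than in CP (70.1 RPKM), and the others were highest in CP. Markers of other cells were present beside these stage markers. Those of endothelium (Cdh5, Pecam1, Tie1 and Cldn5) summed to 18.2, 0.760, 195 and 85.6 RPKM and those of blood (Hbb-bh1, Hba-x, Gata1 and Itga2b) to 1.00, 1.84, 235 and 8.73 RPKM. Smooth muscle markers (Acta2, Tagln and Cnn1), which early heart muscle also expresses, summed to 273, 6.55, 563 and 2426 RPKM. Endoderm markers (Sox17, Foxa2 and Ttr, with Afp and Apoa1 outside the table) summed to 0.229, 16.4, 13.9 and 2.91 RPKM. In bulk RNA, fewer cells of a type and less RNA per cell cannot be told apart. Depth, estimated from the steps between low values and from exon lengths, was 75.3, 62.0, 64.8 and 88.5 M reads (1 M is 1000000) in the 4 stages. Of 10356 genes with an exon length, 24.7% implied this depth to within 0.1%. A carrier of the median exon length, 4.52 kb, at 1 RPKM rested on 340.5, 280.0, 293 and 400.1 reads. The 95% Poisson interval of such a value in MES runs from 88.6% to 112% of it and covers counting error only.

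As background, glucose enters cells through the Slc2a family of facilitative carriers, and lactate leaves or enters together with a proton through the Slc16a family. Many amino acid carriers exchange one amino acid for another or use the sodium gradient across the membrane. In the heart, the postnatal muscle cell takes up glucose through the insulin-responsive carrier encoded by Slc2a4, while embryonic cells rely on those encoded by Slc2a1 and Slc2a3.

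Sequences before the RefSeq start are shown for the glucose carrier Slc2a1 and the lactate carriers Slc16a1 and Slc16a3. The stage patterns of these 3 genes are compared next. Capitals mark ACGTG, the core of the hypoxia response element, on either strand. The sequences are from RefSeq on build GRCm38.p6, whereas the reads were aligned to mm9. They run 5′ to 3′ on the plus strand, which is the strand of all 3 genes. Each begins 250 bases before the start that RefSeq annotates. That of Slc2a1 stops 30 bases short of it. GENCODE M21 starts the Slc2a1 gene at chr4:119108711, which lies within the ACGTG shown. The windows are chr4:119108495-119108714, chr3:104638414-104638663 and chr11:120948817-120949066.
Slc2a1: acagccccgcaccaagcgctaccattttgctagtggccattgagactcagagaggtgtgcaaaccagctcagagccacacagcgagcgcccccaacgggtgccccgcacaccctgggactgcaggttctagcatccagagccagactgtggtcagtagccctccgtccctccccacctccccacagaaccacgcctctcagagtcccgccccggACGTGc
Slc16a1: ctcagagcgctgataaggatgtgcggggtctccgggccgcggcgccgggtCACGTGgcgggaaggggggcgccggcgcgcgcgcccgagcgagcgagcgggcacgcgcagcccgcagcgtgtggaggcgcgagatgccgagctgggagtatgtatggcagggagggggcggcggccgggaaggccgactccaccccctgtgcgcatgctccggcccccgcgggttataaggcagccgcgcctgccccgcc
Slc16a3: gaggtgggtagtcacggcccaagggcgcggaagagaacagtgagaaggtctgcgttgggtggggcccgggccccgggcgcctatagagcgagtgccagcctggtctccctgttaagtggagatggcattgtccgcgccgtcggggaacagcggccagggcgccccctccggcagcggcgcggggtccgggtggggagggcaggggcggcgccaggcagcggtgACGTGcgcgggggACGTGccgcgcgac
Slc16a3 holds ACGTG at 27 and 14 bases before its RefSeq start (leftmost base) and Slc2a1 at 36 bases. GENCODE M21 starts the Slc16a3 gene earlier, at chr11:120948480, so by that annotation the window shown lies inside the gene. In Slc16a1 the 2 matches, at 200 and 199 bases, are overlapping readings of CACGTG on opposite strands. A match is a description of these letters, not a binding site. Counting a gene once, ACGTG occurred in the 250-base windows of 41 of the 141 solute carriers with a RefSeq promoter (29.1%) and in 25.4% of 9240 table genes with one. Over all 32851 promoters, expressed in these cells or not, the share was 16.6%. The composite TGATGNAAN of amino acid response genes was found, on either strand, upstream of 1 of 25 amino acid carriers, Slc7a7 (4%), in 2.34% of table genes with a promoter and in 3.44% of all promoters.

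Across the 4 stages, 124 of the 186 members (66.7%) had a range of at least 2-fold, against 63.2% of all genes, a share near the background. Of these, 42 were highest in ESC (22.6% of members, against 21% of all genes) and 51 in CM (27.4% against 20.4%). The middle stages had fewer, with 14 for MES (7.53% against 12.1%) and 17 for CP (9.14% against 9.58%). From ESC to MES 18 members were at least 2-fold higher and 36 lower. Over all genes 11.1% were higher and 11.2% lower, so the members' share of higher genes (9.68%) lay near the background and that of lower genes (19.4%) above it. With a pseudocount of 0.1 these counts were 35 and 45 (18.8% and 24.2%, against 16.8% and 15.5% of all genes). With stages scaled to the same sum, which here also acts as a smaller pseudocount, they were 32 and 43 (17.2% and 23.1%, against 16.2% and 14.0%). The median difference was nevertheless 0.10 for the members and 0.05 for all genes. From MES to CP 15 members were higher (8.06%, against 8.91% of all genes) and 6 lower (3.23% against 3.91%), and the medians were 0.04 and -0.03. That balance changed with quantile normalization across stages, to 10 higher and 10 lower (5.38% each, against 7.69% and 4.82% of all genes). From CP to CM 32 members were higher (17.2%, against 11.3% of all genes) and 22 lower (11.8% against 12.8%), with medians of 0.05 and -0.15. At a minimum of 4-fold that balance turned, to 4 higher and 7 lower (2.15% and 3.76%, against 3.23% and 2.36% of all genes). End to end, from ESC to CM, 47 members were higher (25.3% against 22.2%) and 35 lower (18.8% against 23.4%). At 4-fold these were 10 and 17 (5.38% and 9.14%, against 8.73% and 7.75% of all genes). Summed over members, RPKM stood at 2544, 1947, 1914 and 2506 in the 4 stages, or 0.961%, 0.766%, 0.796% and 0.963% of the sum over all genes.

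**Figure D1:**
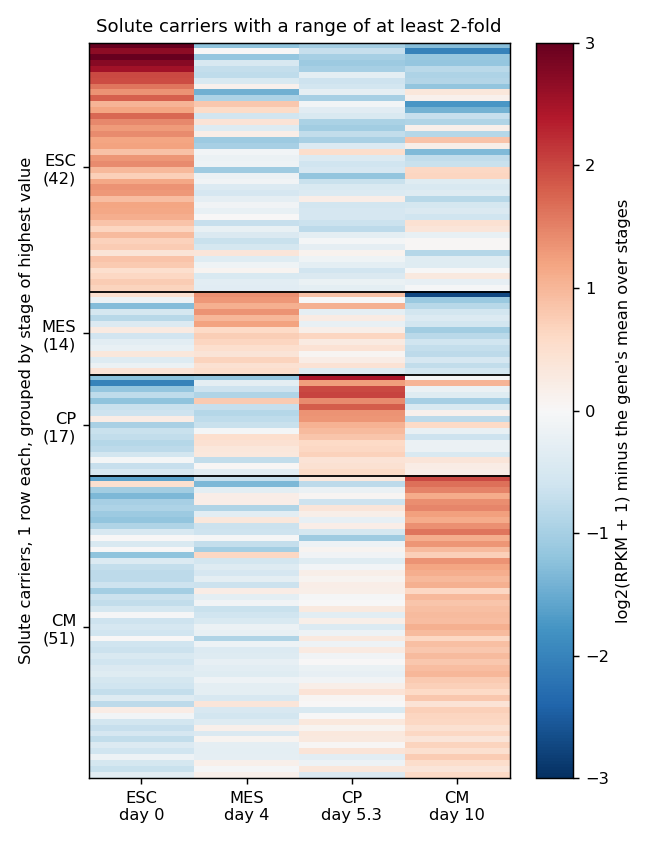
Solute carriers with a range of at least 2-fold over the 4 stages, 1 row per gene, grouped by the stage of the highest value (42 for ESC, 14 for MES, 17 for CP, 51 for CM). Colour is log2(RPKM + 1) minus the gene's mean over the stages, limited to 3 in each direction. The values past that limit are those of Slc7a3 and Slc28a1 in ESC.

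**Figure D2:**
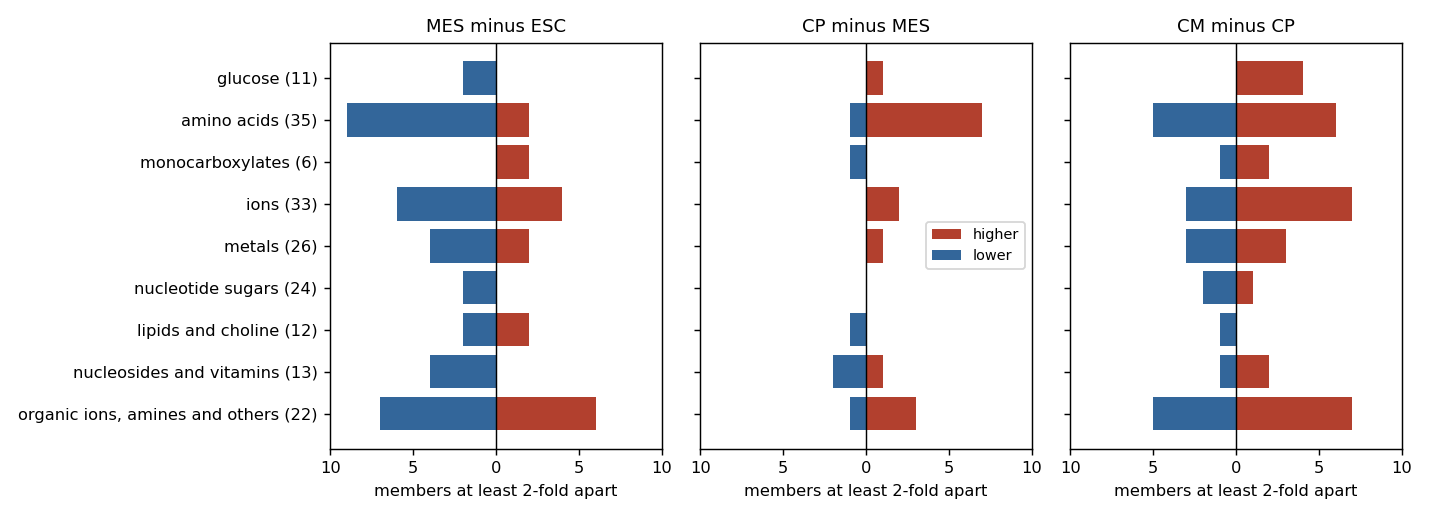
Number of members at least 2-fold higher (right, red) or lower (left, blue) in each comparison of adjacent stages, by transported class, with class sizes in parentheses. Amino acid carriers make up 9 of the 36 members lower in MES. These are 25.7% of that class, against 19.4% of all members and 11.2% of all genes. In CM 4 of 11 glucose carriers are higher than in CP (36.4%, against 11.3% of all genes) with none lower (12.8% of all genes).

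Glucose carrier RNA was dominated by 2 genes at every stage and lowest in MES. Slc2a1 (ENSMUSG00000028645), which encodes the basal glucose transporter GLUT1, stood at 241, 146, 148 and 338 RPKM. It was therefore high at both ends of the series and lower in the middle. Slc2a3 (ENSMUSG00000003153), which encodes the high-affinity GLUT3, stood at 380.3, 92.5, 136 and 299 RPKM. The ratio of Slc2a3 to Slc2a1 was 1.58, 0.633, 0.919 and 0.884 in stage order, so their order turned between ESC and MES. Together they made up 96.7%, 93.0%, 90.8% and 91.6% of the summed RPKM of the 11 sugar carriers, which was 643, 256, 314 and 695. From CP to CM, Slc2a1 differed by 1.18 and Slc2a3 by 1.12 on the log2 scale, and with quantile normalization by 0.81 and 0.77, below 2-fold.

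Slc2a4 (ENSMUSG00000018566), which encodes the insulin-responsive GLUT4 of muscle and fat, was higher at each successive stage. Its values were 0.478, 1.71, 4.46 and 16.3 RPKM, a log2 difference of 3.55 from ESC to CM. In CM it still stood at 0.0483 of the Slc2a1 level per length, against 0.00198 in ESC. Slc2a12, which encodes another glucose carrier of muscle and fat, followed the same order at lower levels, with 0.0839, 0.310, 1.12 and 2.97 RPKM. Slc2a10 stood at 0.0372, 0.353, 0.415 and 2.04 RPKM, Slc2a8, an intracellular carrier gene, at 8.98, 8.39, 12.7 and 21.8 RPKM and Slc50a1 at 4.74, 4.23, 9.04 and 14.5 RPKM. With Slc2a1, these make 6 of 11 sugar carriers that were highest in CM with a range of at least 2-fold, against 20.4% of all genes. The sodium-coupled inositol carrier gene Slc5a11 went the other way, with 4.36, 0.0878, 0.174 and 0.0123 RPKM. Its CM value rests on 3 recovered reads and lies between 0.00253 and 0.0359 RPKM by a 95% Poisson interval. Slc5a4b, Slc45a4 and Slc45a3 did not reach a range of 2-fold, and their highest values were 1.01 RPKM in ESC, 1.69 RPKM in MES and 1.33 RPKM in ESC.

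The main lactate carriers exchanged rank between ESC and MES and again between MES and CP. Slc16a1 (ENSMUSG00000032902), which encodes MCT1, a carrier that works in both directions, stood at 31.0, 96.4, 35.1 and 27.7 RPKM. Its single peak was in MES, 1.61 above ESC and -1.43 from MES to CP on the log2 scale. Slc16a3 (ENSMUSG00000025161), which encodes MCT4, the lactate exporter of glycolytic cells, stood at 45.3, 54.2, 98.0 and 222 RPKM, with each stage above the one before. The ratio of Slc16a3 to Slc16a1 was 1.46, 0.563, 2.79 and 8.03 in the same order. Slc16a3 alone made up 83.0% of the summed RPKM of the 6 monocarboxylate carriers in CM, against 51.7% in ESC. The step from CP to CM was 1.17, or 0.92 with quantile normalization. Among the other members Slc16a13 was high in MES and CP (3.33, 9.76, 9.01 and 2.70 RPKM), and Slc16a6, with 24.9% of its 32-base words shared with other genes, stood at 7.51, 5.19, 7.99 and 13.1 RPKM. Slc16a12, which encodes a creatine carrier, reached 1.59 RPKM in CM from 0.0164, 0.0159 and 0.103 RPKM, where the first 2 values rest on 5 and 4 recovered reads. Slc16a11 stayed between 0.282 and 1.24 RPKM.

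**Figure D3:**
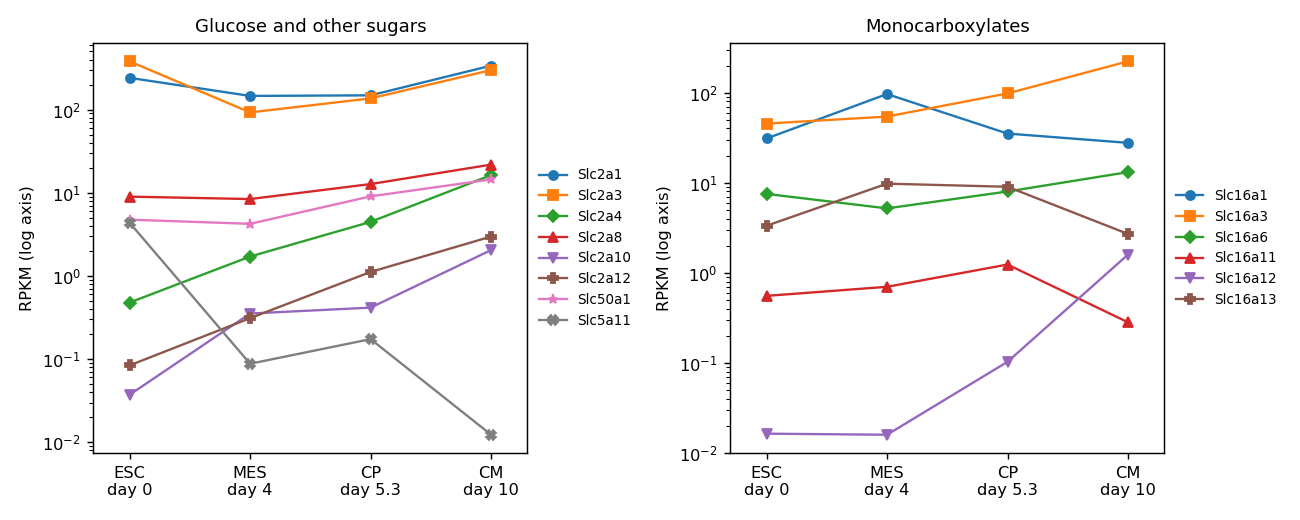
RPKM on a log axis at the 4 stages for 8 sugar carriers (left) and the 6 monocarboxylate carriers (right), 1 value per stage and no error bars. Slc2a4 climbs at every step from 0.478 to 16.3 RPKM, while Slc16a1 peaks at 96.4 RPKM in MES and Slc16a3 at 222 RPKM in CM.

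Partner genes were read from a list of 49 genes, of which 45 were in the table. From CP to CM 17 of them were at least 2-fold higher (37.8%, against 11.3% of all genes) and 8 lower (17.8% against 12.8%), with a median of 0.47. From ESC to MES 7 were higher (15.6% against 11.1%) and 14 lower (31.1% against 11.2%), with a median of -0.22. From MES to CP 8 were higher (17.8% against 8.91%) and 4 lower (8.89% against 3.91%), with a median of 0.09. The list was chosen with earlier results of these data known. Bsg and Emb encode accessory proteins that bring monocarboxylate carriers to the cell surface. Bsg stood at 189, 219.8, 289 and 1522 RPKM and Emb at 72.8, 128, 46.3 and 9.43 RPKM, so Bsg was highest in CM with Slc16a3 and Emb in MES with Slc16a1. Ldha, the lactate dehydrogenase subunit that predominates in glycolytic tissue, stood at 213, 321, 303 and 513 RPKM and Ldhb, the heart-type subunit, at 59.2, 50.1, 25.8 and 73.6 RPKM. The hexokinase genes, whose products trap glucose after entry, were both lowest in MES and highest in CM. Hk1 stood at 6.87, 2.61, 8.64 and 82.5 RPKM and Hk2 at 88.4, 37.3, 45.0 and 121 RPKM. Txnip, whose product removes GLUT1 from the cell surface, stood at 48.8, 18.5, 61.6 and 239 RPKM, and Tbc1d4, which retains GLUT4 inside the cell until insulin acts, at 0.430, 2.93, 1.68 and 11.9 RPKM.

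The summed RNA of the 35 amino acid carriers was highest in ESC, at 723, 445, 450.2 and 469 RPKM, a sum that a few abundant genes carry. The median member was highest in CM instead, at 2.88, 2.32, 3.85 and 4.79 RPKM. Of the 35 members, 24 had a range of at least 2-fold, as did 63.2% of all genes. Of these, 9 peaked in ESC and 9 in CM. Each is 25.7% of the class, against 21% and 20.4% of all genes. The median difference from ESC to CM was 0.28. From ESC to MES 2 members were at least 2-fold higher (5.71%, against 11.1% of all genes) and 9 lower (25.7% against 11.2%), with a median of 0.08. From MES to CP 7 were higher (20.0% against 8.91%) and 1 lower. The sharpest difference belonged to Slc7a3 (ENSMUSG00000031297), which encodes the cationic amino acid transporter CAT3. It stood at 54.7, 1.08, 1.39 and 0.982 RPKM, -4.74 on the log2 scale from ESC to MES, and stayed low afterwards. Slc7a1, which encodes the related carrier CAT1, stood at 21.9, 2.32, 6.41 and 10.4 RPKM, lowest in MES and partly restored by CM. The family did not move together: Slc7a2 (CAT2), named after its values were seen, stood at 0.122, 0.420, 0.701 and 2.46 RPKM, lowest in ESC and highest in CM.

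Heteromeric carriers share the heavy chain that Slc3a2 (CD98) encodes, paired with a light chain from the Slc7a family. Slc3a2 stood at 161, 61.3, 49.5 and 52.3 RPKM, high in ESC and level from CP to CM. Slc7a5, the LAT1 light chain that takes up leucine and other large neutral amino acids, stood at 98.4, 34.8, 21.5 and 13.3 RPKM, lower at each stage. Its ratio to Slc3a2 was 0.612, 0.567, 0.434 and 0.255. Slc7a7, the y+LAT1 light chain, stood at 57.8, 5.16, 4.09 and 4.82 RPKM, and nearly all of its difference lay between ESC and MES. Slc1a5 and Slc1a4 encode the neutral amino acid exchangers ASCT2 and ASCT1, the first a main route of glutamine entry. Slc1a5 stood at 24.0, 11.3, 3.77 and 3.98 RPKM and Slc1a4 at 19.0, 12.1, 5.99 and 2.31 RPKM, and both were several-fold lower in CM than in ESC.

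System A carriers, which take up small neutral amino acids with sodium, differed less between stages. Slc38a4 (ENSMUSG00000022464), an imprinted gene, stood at 67.3, 104, 137 and 139 RPKM and had the highest value of the class in MES, CP and CM. Slc38a2, a carrier induced by amino acid shortage, stood at 98.8, 87.3, 50.9 and 85.5 RPKM, a range under 2-fold. Slc38a3, a glutamine carrier of the related system N, stood at 1.06, 3.74, 1.67 and 9.86 RPKM. Slc7a4, an orphan relative of the CAT genes, was near 0.635 RPKM in CP and at 6.18 RPKM in CM.

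Of 6 genes of the amino acid response on the partner list, 5 were highest in ESC with a range of at least 2-fold. Of all genes, 21% were so. The 6 genes were listed with earlier results of these data known. Atf4, the transcription factor of that response, stood at 193, 92.0, 84.3 and 109 RPKM. Asns, asparagine synthetase, stood at 106, 32.5, 26.9 and 11.6 RPKM, Trib3 at 24.9, 1.53, 3.38 and 5.08 RPKM, Chac1 at 22.5, 0.739, 2.32 and 1.57 RPKM and Sesn2 at 52.3, 31.1, 13.0 and 13.0 RPKM. Ddit3, the remaining gene, was highest in CM (6.14, 3.73, 4.85 and 18.9 RPKM).

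**Figure D4:**
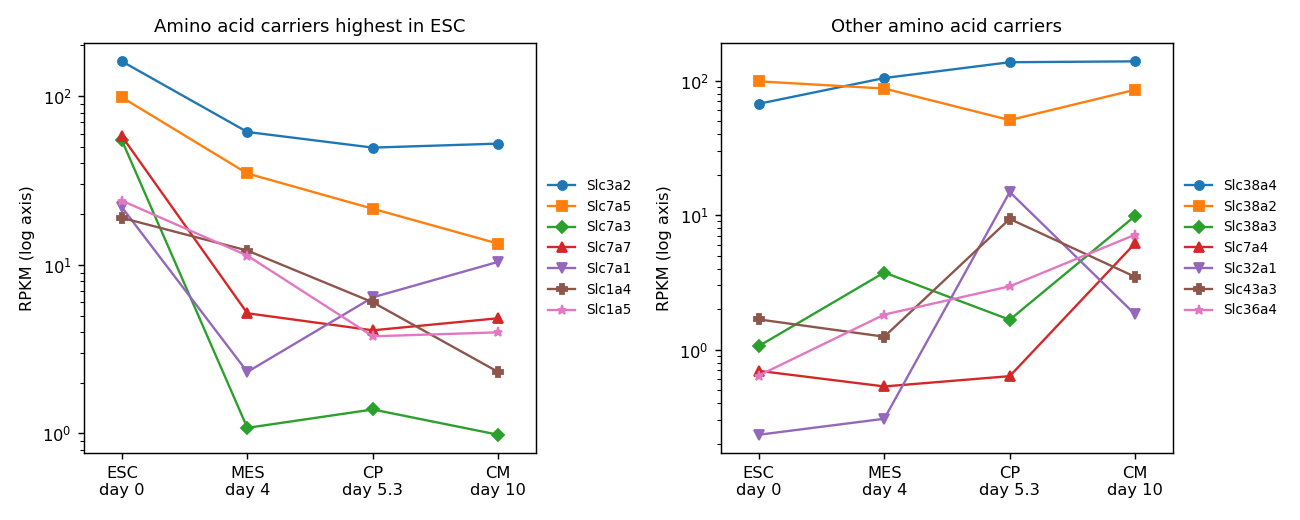
RPKM on a log axis at the 4 stages for 7 amino acid carriers highest in ESC (left) and 7 others (right), 1 value per stage and no error bars. Slc7a3 drops from 54.7 to 1.08 RPKM between ESC and MES, Slc38a4 stays between 67.3 and 139 RPKM, and Slc32a1 has a single peak of 14.8 RPKM in CP.

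The 6 members with the largest differences from MES to CP all had their peak in CP, and they carry different substrates. Slc32a1, the vesicular carrier of GABA and glycine, stood at 0.233, 0.306, 14.8 and 1.83 RPKM. Slc18a2, the vesicular monoamine carrier VMAT2, stood at 0.288, 0.866, 10.4 and 1.54 RPKM and Slc30a3, the zinc carrier of synaptic vesicles, at 1.05, 0.858, 13.3 and 1.72 RPKM. Slc22a3, which encodes the organic cation transporter OCT3, stood at 0.0152 RPKM in ESC, was listed at 0 in MES, and stood at 4.72 and 0.187 RPKM in CP and CM. The proline carrier gene Slc6a7 stood at 1.03, 0.0192 and 3.35 RPKM and was listed at 0 in CM, where 3 reads would have been 0.0101 RPKM. Slc43a3, a purine base carrier grouped here by its family, stood at 1.68, 1.25, 9.37 and 3.47 RPKM. The MES-to-CP differences of these 6 genes ran from 2.09 (Slc6a7) to 3.60 (Slc32a1), and each was lower again in CM. Other vesicular or cation carriers had no such peak, among them Slc17a9 and Slc47a1, whose values follow. All 4 blood markers and all 4 endothelial markers were highest in CP too, with the sums given above. Of the neural markers, Pax6 stood at 1.99, 0.0195, 4.21 and 0.949 RPKM and Tubb3 at 97.2, 7.27, 0.527 and 1.07 RPKM. The part of other cell types in these peaks was not tested. The longest transcript of Slc32a1 shares 24.2% of its 32-base words with transcripts of other genes, so its level is less certain.

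Of 33 ion carriers, 4 were at least 2-fold higher in MES than in ESC (12.1%, near the 11.1% of all genes) and 6 lower (18.2% against 11.2%), with a median of 0.23. From MES to CP 2 were higher (6.06% against 8.91%) and 0 lower. From CP to CM 7 were higher (21.2% against 11.3%) and 3 lower (9.09% against 12.8%), with a median of -0.04. Slc12a4, the potassium-chloride cotransporter KCC1 of cell volume control, stood at 22.9, 5.74, 9.01 and 52.5 RPKM, lowest in MES and highest in CM, with a CP-to-CM difference of 2.42. Slc12a7, its relative KCC4, stood at 12.9, 18.1, 11.7 and 25.0 RPKM. Stk39, which encodes the kinase SPAK that regulates these cotransporters, stood at 0.552, 4.59, 5.00 and 25.9 RPKM. The other listed kinases of these cotransporters did not share that order. Oxsr1 stood at 29.0, 16.3, 18.3 and 19.0 RPKM and Wnk1 at 42.2, 42.3, 39.8 and 41.5 RPKM. Wnk4 stood at 0.637, 2.27, 5.83 and 3.63 RPKM and Wnk2 at 0.746, 1.06, 0.814 and 2.58 RPKM.

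Phosphate carriers were highest in ESC. Slc20a1 stood at 53.8, 18.2, 15.4 and 11.98 RPKM, lower at each stage, and Slc20a2 at 40.3, 29.6, 18.5 and 27.8 RPKM, with a minimum in CP. Among the bicarbonate carriers, Slc4a4 (NBCe1) stood at 0.296, 2.68, 1.45 and 5.28 RPKM and Slc4a5 at 3.01, 0.759, 1.42 and 0.185 RPKM, so the former was highest in CM and the latter in ESC. Carbonic anhydrase genes, whose enzymes make bicarbonate, also differed by member. Car2 stood at 131, 64.7, 37.5 and 2.42 RPKM, Car14 at 0.696, 45.9, 27.1 and 24.6 RPKM and Car12 at 1.34, 0.700, 0.585 and 30.3 RPKM.

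Slc24a2, a potassium-dependent sodium-calcium exchanger gene, stood at 0.00973, 0.0315, 1.48 and 4.30 RPKM and Slc26a11, an anion exchanger gene, at 1.01, 2.38, 2.65 and 10.6 RPKM. Both were highest in CM. Slc5a5, the sodium-iodide symporter gene, and Slc4a11 ran in the opposite order, with 4.05, 1.17, 0.132 and 0.0463 and 3.87, 0.636, 0.219 and 0.156 RPKM.

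Among the 26 metal carriers, 20 differed by under 2-fold from ESC to MES, 25 from MES to CP and 20 from CP to CM. Those higher made up 7.69%, 3.85% and 11.5% of the class, against 11.1%, 8.91% and 11.3% of all genes. Those lower made up 15.4%, 0% and 11.5%, against 11.2%, 3.91% and 12.8%. Slc39a7, a zinc carrier of the endoplasmic reticulum, had the highest level at every stage (70.9, 96.9, 74.8 and 124 RPKM), but 84.1% of the 32-base words of its longest transcript occur in other annotated genes, so that level is uncertain. Slc30a9 stood at 15.3, 19.8, 23.9 and 42.1 RPKM and Slc39a10 at 18.1, 36.1, 27.5 and 14.6 RPKM. Slc39a8, which carries zinc and manganese and is needed for heart development in the mouse, was high in the 2 middle stages, at 0.365, 6.02, 5.96 and 0.880 RPKM. Slc39a4, a zinc uptake carrier, stood at 15.6, 7.63, 12.2 and 2.63 RPKM, a difference of -1.86 from CP to CM on the log2 scale. Zinc carrier genes thus peaked at several stages. Slc30a2, Slc39a14 and Slc30a10 were highest in ESC, ESC and CM, at 4.69, 8.60 and 2.68 RPKM. Slc41a3 and Slc39a13 reached 5.17 and 9.26 RPKM in CM, from 1.21 and 3.23 RPKM in CP. The metallothionein genes, which bind zinc, fell into another order: Mt1 stood at 240.2, 9.08, 14.6 and 115 RPKM and Mt2 at 551, 7.59, 7.94 and 10.8 RPKM.

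**Figure D5:**
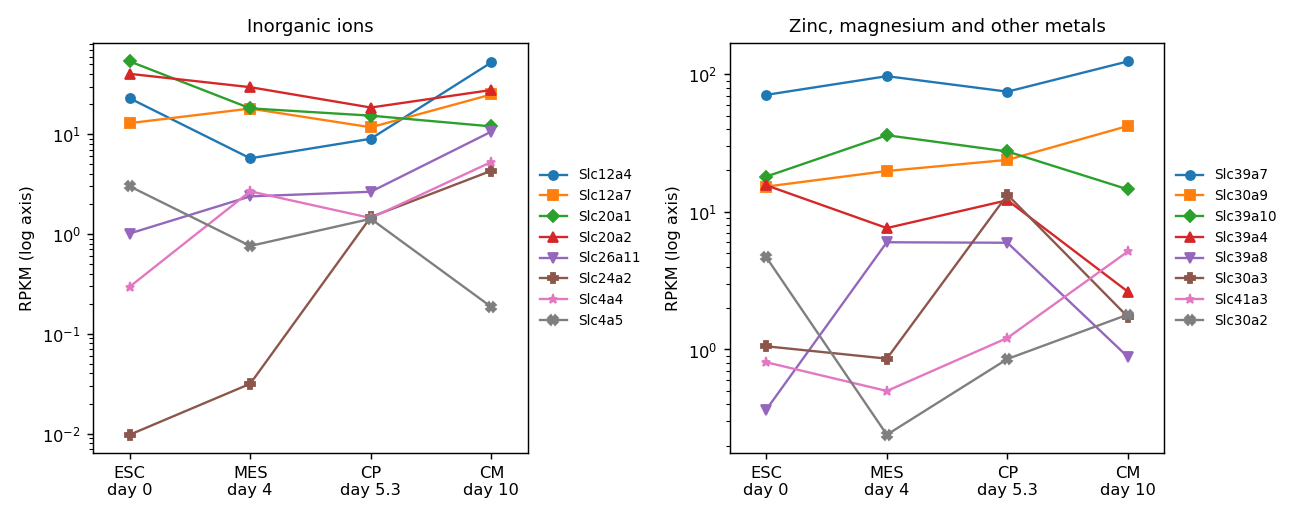
RPKM on a log axis at the 4 stages for 8 ion carriers (left) and 8 metal carriers (right), 1 value per stage and no error bars. Slc12a4 dips to 5.74 RPKM in MES and reaches 52.5 RPKM in CM, and Slc39a8 is high in MES and CP at 6.02 and 5.96 RPKM.

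The 13 carriers of nucleosides and vitamins, 5 of them of the nucleoside families Slc28a and Slc29a, had the lowest class median from ESC to CM (-0.61), apart from the 4 genes that are not carriers (-0.88). Slc28a1, the sodium-coupled nucleoside carrier CNT1, stood at 23.1, 0.0930, 0.225 and 0.115 RPKM, and its MES and CM values rest on 17 and 30 recovered reads. Slc29a1, the equilibrative carrier ENT1, stood at 105, 18.8, 16.7 and 13.9 RPKM, and its relative Slc29a2 (ENT2) at 9.02, 8.77, 3.81 and 20.2 RPKM. The ratio of Slc29a2 to Slc29a1 was 0.0861, 0.467, 0.228 and 1.45 along the stages, so ENT2 had the higher level in CM. Slc29a4 stood at 9.02, 7.56, 3.60 and 0.473 RPKM. The thiamine carrier gene Slc19a2 had its low point in CP (21.3, 11.2, 5.02 and 20.3 RPKM). Both ascorbate carrier genes were highest in ESC, with Slc23a1 at 3.86, 0.409, 0.505 and 0.513 RPKM and Slc23a2 at 8.29, 2.94, 3.66 and 2.96 RPKM. Slc46a3 was highest in CP (1.15, 1.67, 7.78 and 5.42 RPKM).

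Carriers of taurine and creatine, which heart muscle uses, did not share a pattern. Slc6a6, the taurine carrier, stood at 33.6, 95.6, 37.8 and 17.3 RPKM, with a peak in MES. Slc6a8, the creatine carrier, stood at 23.6, 12.6, 8.16 and 19.3 RPKM and was lowest in CP. The former was thus highest in MES and the latter in ESC. Slc22a17, which encodes a receptor for the iron-binding protein lipocalin-2, had the largest range of this mixed class and stood at 5.62, 20.8, 62.8 and 52.9 RPKM, high in CP and CM. Slc22a23 was high in MES and CP (1.17, 7.75, 12.5 and 1.51 RPKM), and Slco3a1 was highest in CM (0.575, 3.61, 3.17 and 7.63 RPKM). Neither Slc22a23 nor Slco3a1 was as high in ESC as in MES. Slc17a9, the vesicular nucleotide carrier, was highest in ESC (9.24, 0.545, 0.482 and 2.20 RPKM). Slc47a1, a proton-coupled drug and cation extruder, was high at both ends (4.11, 0.0620, 0.155 and 3.09 RPKM). Slc6a13 stood at 0.315, 0.189, 0.356 and 3.46 RPKM.

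Fatty acid carriers of the Slc27a family did not share a stage of highest RNA. Slc27a2 was highest in ESC (13.9, 0.615, 0.0556 and 0.0136 RPKM), Slc27a3 peaked in MES (5.70, 22.7, 13.2 and 8.06 RPKM), and Slc27a1, the form of muscle and fat, was higher at each stage (7.53, 8.55, 13.8 and 24.1 RPKM). Slc27a6, which is known from heart, was listed at 0 in ESC (3 reads would have been 0.0160 RPKM) and stood at 0.831, 1.39 and 0.0773 RPKM afterwards. Slc27a4 stood at 8.95, 13.8, 11.4 and 14.6 RPKM. Of the choline carrier family, Slc44a1 stood at 10.4, 3.42, 3.81 and 4.12 RPKM, Slc44a2 at 17.5, 19.9, 33.0 and 40.8 RPKM and Slc44a5 had a peak in MES (0.0316, 2.81, 0.233 and 0.00948 RPKM). Slc44a4 was highest in ESC at 1.45 RPKM.

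The 24 carriers of nucleotide sugars and sugar phosphates, most of which serve the Golgi apparatus and endoplasmic reticulum, had the lowest share of members with a range of at least 2-fold among the classes. From MES to CP none differed by 2-fold, a step at which 8.91% of all genes were higher and 3.91% lower. Over the 4 stages 10 of 24 had a range of at least 2-fold, against 63.2% of all genes. Slc35f2 was the exception in size, at 27.7, 3.52, 1.75 and 0.120 RPKM and -4.68 from ESC to CM on the log2 scale. Slc37a1 was also highest in ESC (9.09, 0.518, 1.11 and 0.358 RPKM). Slc37a4, the glucose-6-phosphate carrier of the endoplasmic reticulum, was higher at each stage (2.09, 3.33, 4.63 and 9.38 RPKM), as was Slc35a2, the UDP-galactose carrier (3.99, 6.78, 7.47 and 14.0 RPKM). Slc35a4 and Slc35b2, with the highest mean levels of those under 2-fold, stood at 25.2, 26.5, 19.7 and 14.2 and 12.2, 18.7, 15.4 and 16.5 RPKM.

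Of the 4 genes that are named after carriers but are none, Slc9a3r1 changed most. It encodes NHERF1, a scaffold that anchors membrane proteins at the cell cortex, and stood at 44.3, 83.4, 59.1 and 3.86 RPKM, -3.63 from CP to CM on the log2 scale. Its relative Slc9a3r2 stood at 5.16, 7.23, 12.3 and 14.1 RPKM, so the order of the 2 scaffold genes was turned in CM. Slc7a6os stood at 31.5, 30.7, 25.5 and 12.6 RPKM and Slc4a1ap at 9.30, 8.09, 6.75 and 6.29 RPKM.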

How the data were processed

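The labels' protocols describe TRIzol extraction, mRNA enrichment on beads and sequencing on an Illumina GAIIx. The submitters' processing notes name Novoalign 2.07.00 and build mm9. The counter, the annotation and any pooling of libraries are not stated in the sources used here. The authors deposited 1 column of RPKM per stage, the unit being per the file headers. Each gene exceeds 1 RPKM somewhere (lowest maximum 1.00017), so a carrier outside the table cannot be called absent.

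From these values log2(RPKM + 1) differences were computed and members at least 2-fold apart were counted beside all 13540 genes. With 1 value per stage no test was run, and the limma fit planned for separate libraries was not used. The members, classes (by family) and lists were chosen with earlier results of these data known. Named are, per class, up to 8 members with the largest range of at least 2-fold and 3 others with the highest mean, the 8 largest differences in each direction between adjacent stages, and 9 fixed carriers, 102 genes in all. Most are described, and some are not reported here. Partner genes could be named if at least 2-fold apart, and the kinases of the chloride cotransporters were named whatever their values.

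RPKM values are whole multiples of the value of 1 read, which gave the depths (relative tolerance 5e-07, with exon lengths of GENCODE M21). Reads were recovered for 120 members. This was tested on data simulated with the same exon lengths, so that test does not check those lengths. Shared sequence is the percentage of 32-base words of the longest M21 transcript found in other genes. It exceeds 50% in 3 members and 10% in 22. Strand was not used. Alternatives were pseudocounts of 0.1 and 0.5, minimums of 4-fold and 3 RPKM, scaling to a sum of 1000000 and quantile normalization. Python 3.11.15, numpy 2.4.6, pandas 2.3.3, scipy 1.17.1 and matplotlib 3.10.9 were used.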

Additional observations from a re-analysis of the deposited data

How the results depend on the processing

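No paired analysis was possible because the table holds 1 value per stage and no value per replicate, and for the same reason no replicate could be left out. With a pseudocount of 0.1 in place of 1, members higher in MES than in ESC came to 35 in place of 18, members higher in CP than in MES to 25 in place of 15, and members lower there to 21 in place of 6. The shares of all genes were 16.8%, 14.0% and 6.96% there, against 11.1%, 8.91% and 3.91%. With a pseudocount of 0.5 that last count was 11 (5.91%, against 5.31% of all genes), and with quantile normalization 10 (5.38% against 4.82%). When stages were scaled to the same sum, 1000000, 32 were higher in MES than in ESC, 24 were higher and 13 lower in CP than in MES, and 27 in place of 17 were highest in CP. All genes stood at 16.2%, 13.4% and 5.29% in those 3 counts of differences. This scaling moved the median of all genes from CP to CM from -0.15 to -0.29. The stage sums before it were 264636, 254281, 240579 and 260127 RPKM in stage order. Scaling thus raised every value before 1 was added, which acts as a smaller pseudocount. At a minimum of 4-fold, 2 were higher and 13 lower from ESC to MES, 6 and 0 from MES to CP, 4 and 7 from CP to CM, and 10 and 17 from ESC to CM. The last 2 comparisons thus held more lower than higher members at 4-fold, against more higher than lower at 2-fold. All genes had more higher at 4-fold in these 2, 3.23% against 2.36% and 8.73% against 7.75%. From ESC to MES all genes stood at 2.78% higher and 3.47% lower, and the members at 1.08% and 6.99%. From MES to CP all genes stood at 2.74% and 0.871%, and the members at 3.23% and 0%. At 4-fold 46 members had that range, 22 of them highest in ESC and 12 in CM, with 3 in MES and 9 in CP. For counts of range and of highest stage under these alternatives, shares of all genes were not computed. Of 159 differences of at least 2-fold among the named genes, 158 stayed so with scaled sums and 150 with quantile normalization. In both, 0 changed sign. At pseudocounts of 0.1 and 0.5 all 159 stayed so, which was fixed in advance. A smaller pseudocount can only widen a difference and cannot change its sign. Scaled sums act partly in that way, so their count is a weak check. The effects of equal sums and of the smaller pseudocount were not separated, and the cause of the other changes was not tested. Low values limit precision: 42 members never reached 3 RPKM.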

Other observations

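The genes named here were chosen after their values were seen. Of the 186 members, 25 had a range under 1.5-fold over the 4 stages (13.4%, against 14.7% of all genes). Slc15a4, a lysosomal peptide and histidine carrier gene, stood at 9.71, 10.6, 9.18 and 10.4 RPKM in stage order, Slc39a11, a zinc carrier gene, at 3.49, 3.15, 3.69 and 3.08 RPKM and Slc36a1, a lysosomal amino acid carrier gene, at 3.55, 4.08, 3.85 and 4.52 RPKM. At the other end of abundance, 7 members reached 100 RPKM in some stage: Slc2a3, Slc2a1, Slc16a3, Slc3a2, Slc38a4, Slc39a7 and Slc29a1. Of 44 members with a mean of at least 10 RPKM, 33 had a range of at least 2-fold (75%), against 62.9% of all genes at that mean.

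Slc24a6, whose product is the sodium-calcium exchanger of the inner mitochondrial membrane, falls under the rule through its older symbol. It stood at 4.53, 2.47, 6.67 and 6.43 RPKM. Slc8a2, the plasma membrane exchanger gene left in the set beside the omitted Slc8a1, stood at 1.56, 3.22, 4.64 and 3.80 RPKM.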
